A study of Rattus norvegicus with 4 samples.

Results

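The microRNA genes of the rat uterus were read from 216 probe sets of a whole-transcript expression array, out of 18166 genes tested. A gene was taken where the platform annotation gave its probe set a single symbol that starts with Mirlet7, or that is Mir followed by a number below 400, whatever the suffix; each of the 216 genes had 1 such probe set, and 11 of them were let-7 genes. Another 7 probe sets carried a microRNA symbol of that range together with other symbols and were left out. The arrays held uterine RNA of adult Sprague Dawley rats, 10 to 12 weeks old, on day 5 of pregnancy, before implantation. One group of 2 arrays came from rats that on day 1 of pregnancy were fed 1.25 mg per kg of ormeloxifene in gum acacia. Ormeloxifene modulates oestrogen receptors selectively, is not a steroid, and serves as a contraceptive taken by mouth. The other group of 2 arrays came from rats given the vehicle alone. Replicates are labelled biological; whether an array held 1 rat or a pool is not given. The comparison asks which uterine transcripts differed after the drug before implantation.

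MicroRNAs are cut from long primary transcripts. The nuclease Drosha, with its partner Dgcr8, frees a hairpin in the nucleus, Xpo5 carries it to the cytoplasm with the help of the GTPase Ran, and Dicer1 trims it to a short mature strand that an Argonaute protein holds. The seed, bases 2 to 8 of the mature strand, pairs with target messenger RNAs and lowers their stability or translation. In rodents the uterus uses microRNAs at implantation, among them members of the let-7, Mir200, Mir199 and Mir181 families, and the Mir143 and Mir145 pair is typical of smooth muscle. A probe set on a microRNA gene reads labelled DNA copied from total RNA at that locus. Primary transcript, hairpin and mature strand cannot be told apart in the table, and no statement below is about the mature strand.

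The RefSeq table (build GRCr8), matched by gene number, gave mature sequences for 205 of the 216 genes and hairpins for 195. The 374 mature entries were 354 distinct sequences, 17 to 25 bases long, with 281 distinct seeds. A seed was shared by mature strands of at least 2 genes in 55 cases, and 121 genes took part. Whole mature sequences were shared in 18 cases, over 33 genes. Sequences of the families on which the results turn are given 5′ to 3′, with the seed in capitals. The first 4 share a seed, and the strand named miR-30c-5p is encoded identically by Mir30c1 and Mir30c2, the pair with the largest difference between groups.
rno-miR-30c-5p: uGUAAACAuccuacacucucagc
rno-miR-30a-5p: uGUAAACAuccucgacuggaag
rno-miR-30e-5p: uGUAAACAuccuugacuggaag
rno-miR-384-5p: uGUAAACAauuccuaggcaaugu
The next strand is encoded by both Mir218-1 and Mir218-2, which went opposite ways, and the one after it by Mir24-1 and Mir24-2.
rno-miR-218a-5p: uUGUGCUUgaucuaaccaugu
rno-miR-24-3p: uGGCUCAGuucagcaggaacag
The largest seed family was that of let-7, of which 3 strands and the related miR-98-5p are shown.
rno-let-7a-5p: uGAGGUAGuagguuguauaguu
rno-let-7c-5p: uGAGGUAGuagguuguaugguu
rno-let-7f-5p: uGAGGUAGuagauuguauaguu
rno-miR-98-5p: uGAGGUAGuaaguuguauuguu
The remaining strands belong to microRNA genes with bright probe sets.
rno-miR-185-5p: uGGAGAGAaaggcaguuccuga
rno-miR-143-3p: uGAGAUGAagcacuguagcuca
rno-miR-21-5p: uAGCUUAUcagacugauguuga
rno-miR-99b-5p: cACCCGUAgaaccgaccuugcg

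The hairpins of the Mir30c pair are given with the mature arms in capitals, since they show what the loci share and where they part. Mir30c1 lies on chromosome 5, minus strand, at chr5:139634455-139634543 of GRCr8, within the span of Nfyc, which encodes a subunit of the transcription factor NF-Y. Mir30c2 lies on chromosome 9, plus strand, at chr9:33253682-33253765. The hairpins are 89 and 84 bases long.
Mir30c1: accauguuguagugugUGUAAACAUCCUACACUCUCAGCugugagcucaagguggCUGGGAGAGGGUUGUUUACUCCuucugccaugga
Mir30c2: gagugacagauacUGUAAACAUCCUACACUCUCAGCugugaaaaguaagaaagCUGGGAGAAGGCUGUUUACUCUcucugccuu

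Values are log2 signals after quantile normalization of the 4 arrays, and a level is given as the percentile of a gene's mean over the 4 arrays among all 18166 genes. How brightly a probe set shines depends on its own bases as well as on the RNA, so these ranks describe signal, not abundance. Epithelial markers such as Krt8 and Cdh1 (6 of 6 measured, median at the 84.6th percentile) and stromal markers such as Vim and Dcn (4 of 4, 99.7th) were bright, and the 3 smooth muscle markers measured, Myh11, Tagln and Des, stood at a median of the 99.2nd. In bulk tissue, fewer cells of a type and less RNA per cell cannot be told apart.

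Most microRNA genes were dim, down to Mir376c at a mean signal of 1.78 and Mir294 at 1.88. Their median stood at the 13.4th percentile, with the middle 50% of them between the 3.23rd and the 32.7th. In the lowest 25% of all genes were 146 of the 216 (67.6%), and 92 were in the lowest 10%. Above the median of all genes were 25 (11.6%), and 7 (3.24%) lay in the upper 25%. On single arrays the median microRNA gene stood at the 15.2nd and 12.4th percentile with ormeloxifene and at the 14.3rd and 13.3rd with vehicle. For scale, 1185 olfactory receptor genes, which the uterus is not known to use, had a median at the 10.6th percentile, and 147 microRNA genes with numbers of 400 and over at the 9.62nd. The median log2 signal was 4.61 for the microRNA genes, 4.38 for the olfactory receptor genes and 6.28 for all genes. The histogram of signal shows the microRNA and olfactory receptor genes side by side on the dim end. A larger share of the microRNA genes lay above the median of all genes (11.6%, against 3.21% of olfactory receptor genes). The highest signal of these sets was that of an olfactory receptor gene (12.2, against 8.65 for the brightest microRNA gene).

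**Figure D1:**
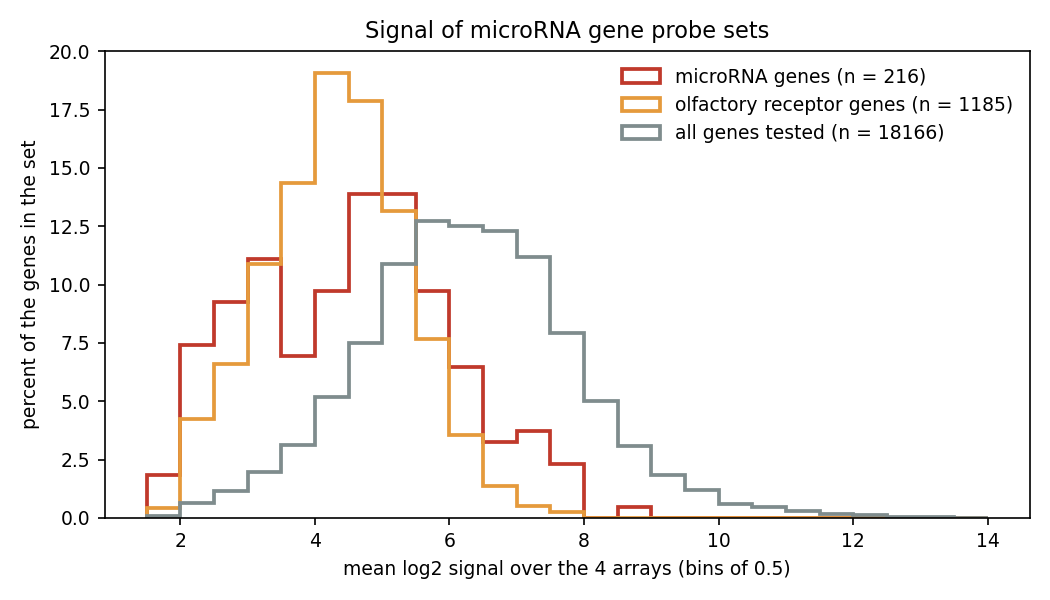
Distribution of mean log2 signal over the 4 arrays (horizontal axis, bins of 0.5) as percent of the genes in each set (vertical axis), for 216 microRNA genes, 1185 olfactory receptor genes and all 18166 genes tested. The medians are 4.61, 4.38 and 6.28.

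The brightest microRNA gene was Mir185, which lies in Tango2, at the 93.3rd percentile. Its signals were 8.93 and 8.73 with ormeloxifene and 8.86 and 8.10 with vehicle, so that the groups overlapped. Mir143, known from smooth muscle, followed at the 85.7th percentile with 8.11 and 7.80 with ormeloxifene and 7.80 and 7.85 with vehicle. Mir145, its neighbour on chromosome 18 in the long non-coding RNA gene Carmn, stood at the 59.5th percentile. Mir207 (85.6th), Mir99a (85.5th), Mir99b (82.9th), Mir345 (79.3rd), Mir346 (75.1st), Mir21 (74.5th), Mir181c (74.3rd), Mir196c (72.3rd), Mir328 (71.8th) and Mir196b (71.6th) completed the 12 brightest. Mir21, which is abundant in many tissues, had 7.46 and 6.76 with ormeloxifene and 7.94 and 6.88 with vehicle. On both sides its replicate 1 was the higher array.

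Hairpins richer in G and C went with brighter probe sets. Across the 195 genes with a hairpin, the percent of G and C correlated with mean signal at Spearman's rho = 0.58, a description across genes that share the same 4 arrays and that are not independent. G and C made up a median of 49.1% of the hairpin over all 195, 58.1% in the 11 of the 12 brightest that had one, and 44.3% among those in the lowest 10% of signal. Mir207 reached 69.2% and Mir99b 67.1%, while Mir1, at the 0.121st percentile, had 36.8%. The part of base composition in these levels was not tested.

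**Figure D2:**
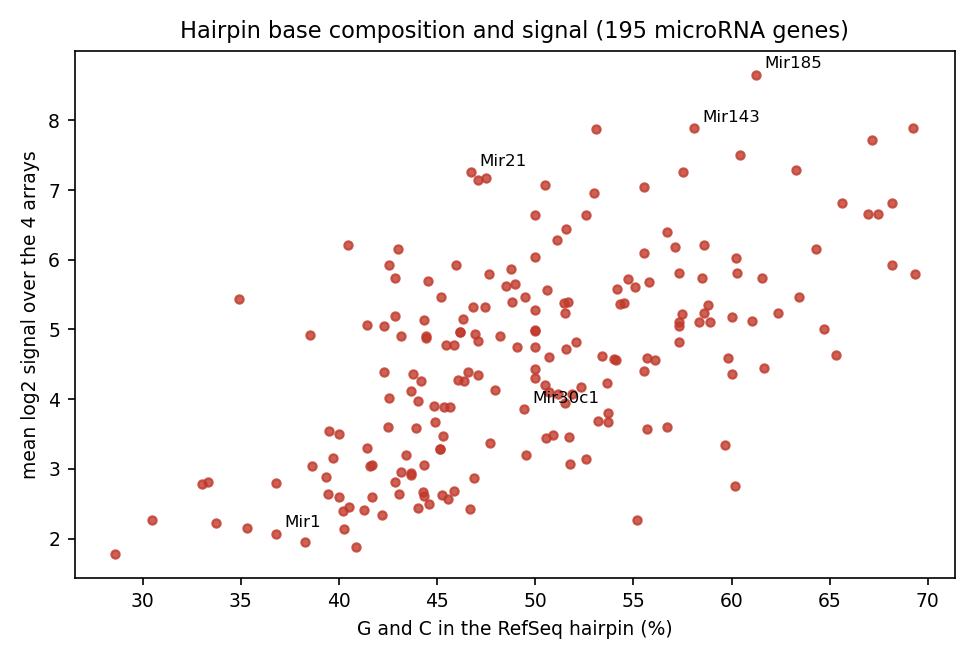
Percent of G and C in the RefSeq hairpin (horizontal axis) against mean log2 signal over the 4 arrays (vertical axis), 1 point for each of 195 microRNA genes. Points run upward to the right (Spearman's rho = 0.58), with Mir185 at the top and Mir1 at the lower left.

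No microRNA gene passed the test between ormeloxifene and vehicle. The median difference, ormeloxifene minus vehicle on the log2 scale, was 0.01, against 0.02 over all genes; 109 were higher and 107 lower. Of the 25 microRNA genes above the median signal of all genes, 19 were higher and 6 lower, at a median of 0.13, and of the 191 below it 47.1% were higher, at a median of -0.02. All genes above the median signal had a median difference of 0.01 (51.8% higher), and all genes below it 0.03 (55.0% higher). Signs of several of the 25, such as Mir143, Mir145 and Mir185, turned when 1 array was left out. Percent of G and C in the hairpin and the difference correlated at Spearman's rho = 0.26 over the 195 genes, again as a description. By limma with Benjamini-Hochberg adjustment over all genes, 0 of the 216 passed an adjusted p of 0.05 in either direction (0% of all genes higher, 0% lower), and each had an adjusted p of 1.00. At an unadjusted p under 0.05 there were 5 higher (2.31%, against 1.12% of all genes) and 4 lower (1.85%, against 1.08%). The groups did not overlap with ormeloxifene higher in 29 (13.4%, against 13.9%) and with ormeloxifene lower in 26 (12.0%, against 11.8%), shares near those of all genes. A difference of at least 0.5 in size occurred in 17 (7.87%, against 3.63%), and of at least 1 in Mir30c1 alone (0.463%, against 0.209%).

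The microRNA probe sets were also noisier than most. Within groups their median SD was 0.28, against 0.21 over all genes, and 0.36 for the olfactory receptor genes. Between single arrays, their median absolute difference was 0.22 between ormeloxifene and vehicle arrays numbered 1 and 0.28 between those numbered 2, against 0.28 between the ormeloxifene replicates and 0.38 between the vehicle replicates. Over all genes these values were 0.19 and 0.17, against 0.23 and 0.27. The 95% interval of the difference lay wholly between -1 and 1, that is within a 2-fold change either way, for 177 of the 216 genes (81.9%), less often than over all genes (90.3%). Its half-width had a median of 0.58, against 0.53 over all genes. With 2 arrays against 2, the smallest p that exact permutation allows for 1 gene is 0.333.

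**Figure D3:**
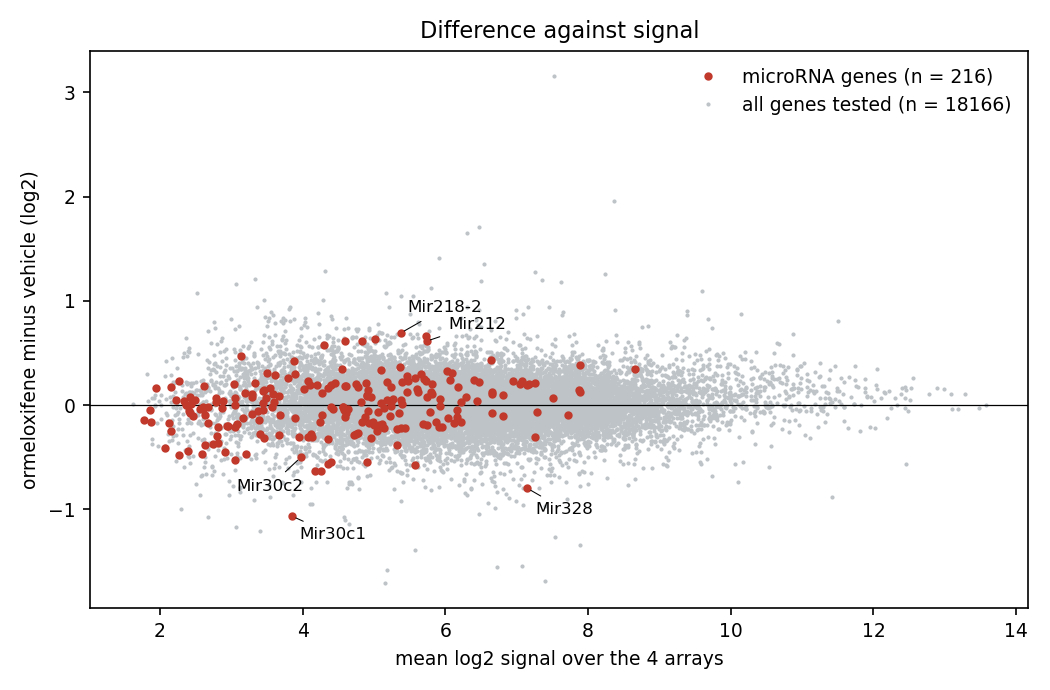
Ormeloxifene minus vehicle on the log2 scale (vertical axis) against mean log2 signal (horizontal axis) for 216 microRNA genes and all 18166 genes tested. The microRNA genes run from -1.06 (Mir30c1) to 0.69 (Mir218-2) and lie mostly on the dim side.

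The microRNA probe sets were more alike between arrays of one replicate number than between arrays of one group. Across the 216, the correlation was 0.967 between the arrays numbered 1 and 0.970 between those numbered 2, against 0.957 between the ormeloxifene arrays and 0.930 between the vehicle arrays. Exactly equal deposited values were found at 2 microRNA probe sets between the arrays numbered 1 and at 5 between those numbered 2. Over all 36685 probe sets they were found at 488 and 551. Equal values between other pairs of arrays were not counted, so these counts cannot be tied to the shared number. The labels name no batch. With the replicate number as a block in limma, 8 microRNA genes were higher (against 3.74% of all genes) and 13 lower (against 3.02%) at an unadjusted p under 0.05, and 0 passed after adjustment (against 0.0275%). For the leading genes the difference is also given separately by number. Several let-7 genes split by number. Mirlet7c2 had 4.34 and 2.73 with ormeloxifene and 4.10 and 3.54 with vehicle, and Mirlet7d 4.48 and 3.49 with ormeloxifene and 4.94 and 3.63 with vehicle. In both genes the arrays numbered 1 were the higher ones, by more than the groups differed.

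Mir30c1 differed most. Its signal was 3.14 and 3.50 with ormeloxifene, against 4.46 and 4.31 with vehicle. Both ormeloxifene arrays lay below both vehicle arrays. The difference was -1.06 ± 0.22 (standard error), with a 95% interval from -1.59 to -0.54, or 2.09-fold lower, and was -1.32 within number 1 and -0.81 within number 2. The unadjusted p by limma was 0.00171 and the adjusted p 1.00, so the gene did not pass. The probe set was dim, at the 5.88th percentile of all genes.

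Mir30c2, whose mature strand miR-30c-5p has the same bases, had 3.84 and 3.61 with ormeloxifene and 4.27 and 4.18 with vehicle. The groups again did not overlap, at a difference of -0.50 ± 0.21 (unadjusted p = 0.0469 by limma) and within-number values of -0.43 and -0.57. It too was dim, at the 6.78th percentile. Whether the probes of either set can bind RNA of the other was not tested. The remaining members of the family did not share the direction. Mir30e, which also lies within Nfyc, had 5.97 and 6.69 with ormeloxifene and 5.95 and 6.55 with vehicle, a difference of 0.08 ± 0.32. Mir30a (0.19 ± 0.37) and Mir30b (0.03 ± 0.22) had groups that overlapped. Mir30d had 5.97 and 6.39 with ormeloxifene and 5.92 and 5.97 with vehicle, a difference of 0.24 ± 0.23. The strand of Nfyc was not analysed here. Nfyc itself differed by -0.16 ± 0.20, with a 95% interval from -0.63 to 0.32.

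On the higher side, Mir218-2 led. It had 5.62 and 5.82 with ormeloxifene, against 4.85 and 5.20 with vehicle, a difference of 0.69 ± 0.23 (unadjusted p = 0.0169 by limma), and 0.76 and 0.62 within the numbers. The gene lies on the same strand within Slit3, a secreted guidance ligand for Robo receptors, whose own difference was 0.13 ± 0.21 (95% interval -0.35 to 0.61). Mir218-1, which encodes the identical miR-218a-5p from within Slit2, differed by -0.27 ± 0.21. The opposite signs of the pair were not tested against each other.

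Mir122, best known as the liver's main microRNA, stood at the 16.5th percentile with 5.10 and 5.18 with ormeloxifene and 4.49 and 4.56 with vehicle, a difference of 0.61 ± 0.20 (unadjusted p = 0.0177 by limma). Mir212, which lies beside Mir132 and shares a seed with it, had 6.01 and 6.07 with ormeloxifene and 5.37 and 5.49 with vehicle, a difference of 0.61 ± 0.20 (unadjusted p = 0.0179). For Mir132 itself the difference was -0.04 ± 0.23. In Mir122 and Mir212 the arrays of a group lay close together and the groups apart, which their choice by smallest p favours. After adjustment 0 of them passed, and neither did any other gene tested.

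Mir125a had 5.23 and 5.43 with ormeloxifene and 4.58 and 4.81 with vehicle, a difference of 0.63 ± 0.22. Its cluster partners on chromosome 1, within Spaca6, were Mir99b at -0.09 ± 0.21 and Mirlet7e at 0.03 ± 0.28, and Spaca6 itself was at -0.26 ± 0.26. Mir325 differed by 0.66 ± 0.26. The next genes on the higher side by p were Mir146b (0.62 ± 0.28), a microRNA induced in inflammation, Mir20b (0.58 ± 0.27) and Mir301b (0.43 ± 0.21). Their unadjusted p, from 0.0633 to 0.0768, missed 0.05. With the replicate number as a block it was 0.00651, 0.00998 and 0.0313, with adjusted p from 0.522 to 0.701.

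On the lower side, Mir184 had 4.11 and 3.77 with ormeloxifene, against 4.64 and 4.50 with vehicle, a difference of -0.63 ± 0.22. Mir323, of the imprinted microRNA cluster on chromosome 6, had 3.87 and 3.85 with ormeloxifene, against 4.76 and 4.23 with vehicle, a difference of -0.63 ± 0.24. Its unadjusted p was 0.0327 by limma and that of Mir184 0.0232. Mir376a (-0.48 ± 0.21), Mir344a-2 (-0.47 ± 0.21), Mir194-1 (-0.57 ± 0.25) and Mir1 (-0.41 ± 0.21), the last a muscle microRNA, had unadjusted p from 0.0516 to 0.0832, and from 0.00805 to 0.0379 with the replicate number as a block (adjusted p at least 0.542). Of these, Mir376a and Mir1 were among the dimmest genes of the array, at the 0.347th and 0.121st percentile.

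**Figure D4:**
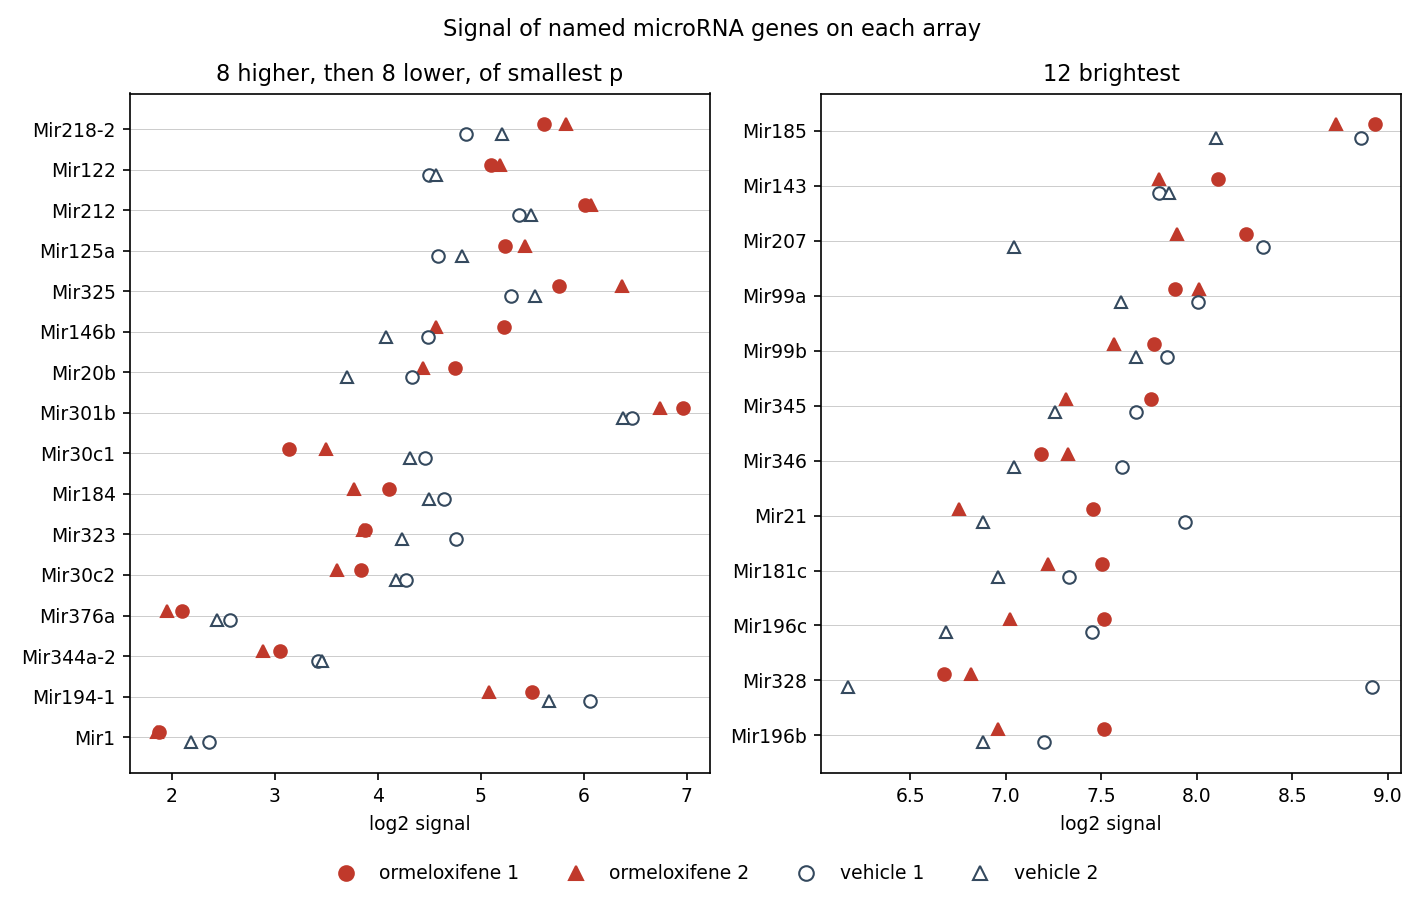
Log2 signal (horizontal axis) on each array for the 16 microRNA genes of smallest unadjusted p, 8 higher then 8 lower with ormeloxifene (left panel), and for the 12 brightest (right panel). Filled symbols are ormeloxifene and open symbols vehicle, circles replicate 1 and triangles replicate 2; the groups separate in all 16 genes on the left, which were chosen by p, and overlap in all 12 on the right.

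The groups overlapped in each of the 12 brightest genes, while they did not in 13.9% (higher) and 11.8% (lower) of all genes. The largest difference among them, that of Mir328, rested on 1 array. Its signal was 6.68 and 6.82 with ormeloxifene and 8.91 and 6.17 with vehicle, so vehicle replicate 1 stood far above the other 3 arrays. That array also raised its mean signal, and with it the rank of Mir328 among the 12 brightest. The difference was -0.80 ± 0.73, and it was -2.24 within number 1 and 0.65 within number 2. Without vehicle replicate 1 the sign turned, to 0.57. Without vehicle replicate 2, which left vehicle replicate 1 alone in its group, it was -2.17. The related Mir328b had 7.01 and 6.42 with ormeloxifene and 6.90 and 6.27 with vehicle, with no such excess. Mir99b had the narrowest interval of the 12, from -0.58 to 0.40, and that of Mir143 was nearly as narrow (-0.38 to 0.63).

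The family lists held small differences in both directions. Of the 11 let-7 genes, 4 were higher and 7 lower, from -0.44 (Mirlet7f-1) to 0.30 (Mirlet7a-2), at a median of -0.14; the median was 0.17 within number 1 and -0.25 within number 2. RefSeq places a single strand, miR-3596d, at Mirlet7f-1, on the strand opposite to Mirlet7f-1os, which carries let-7f-5p. The Mir200 and Mir141 family, which guards epithelial character by holding down Zeb1 and Zeb2, had 4 genes among the 216, 2 higher and 2 lower, from -0.18 (Mir200b) to 0.23 (Mir200a). Mir429, of the same family but numbered outside the range, differed by -0.03 ± 0.37. Mir143 and Mir145 differed by 0.13 ± 0.22 and 0.11 ± 0.23. The 3 smooth muscle markers measured had differences on the same side, from 0.15 to 0.37. At an unadjusted p under 0.05 by limma were 0 of the 3 (against 2.20% of all genes). The part of these markers in the values of Mir143 and Mir145 was not tested. The neighbours Mir199a2 and Mir214, known from mesenchyme, differed by 0.23 ± 0.22 and 0.20 ± 0.27. In each of these 4 lists 0 members had an unadjusted p under 0.05 by limma (against 2.20% of all genes). With the replicate number as a block (6.76% of all genes at that p), Mirlet7f-1 had 0.0287 (adjusted p = 0.701).

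The 15 genes of the Mir17-92 type clusters, which favour proliferation, ran from -0.56 (Mir18a) to 0.58 (Mir20b), 10 higher and 5 lower at a median of 0.05. Mir18a had 4.24 and 3.92 with ormeloxifene and 5.06 and 4.21 with vehicle, a difference of -0.56 ± 0.31 (unadjusted p = 0.108, and 0.0174 with the block). The 6 genes whose strand carries the seed AAAGUGC (Mir17, Mir20a, Mir20b, Mir93, Mir106a and Mir106b) were all on the higher side, at a median of 0.07. At an unadjusted p under 0.05 by limma were 0 of the 6 (against 2.20% of all genes). The other seeds carried by 6 genes were AUUGCAC, with 2 higher and 4 lower, and UAUACAA, with 1 higher and 5 lower. The implantation list held 15 genes (Mir21, Mir22, Mir223 and the Mir29, Mir101 and Mir181 genes). They ran from -0.30 (Mir21) to 0.35 (Mir181b1), 11 higher and 4 lower at a median of 0.15. Of these 15, 0 had an unadjusted p under 0.05 by limma (against 2.20% of all genes). Mir181d had 6.99 and 7.15 with ormeloxifene and 6.94 and 6.74 with vehicle, a difference of 0.23 ± 0.21.

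Signs are given below as a description only, since the difference was smaller than its standard error in 154 of the 216 genes (71.3%, against 75.8% of all genes). Of the 18 mature strands encoded more than once, all loci lay on one side in 9. Mir24-1 and Mir24-2 were both lower, at -0.22 ± 0.21 and -0.37 ± 0.25, and Mir29b1 and Mir29b2 both higher, at 0.16 ± 0.24 and 0.17 ± 0.23. Mir92a1 and Mir92a2, by contrast, stood at -0.31 ± 0.21 and 0.30 ± 0.22, and Mir194-1 and Mir194-2 at -0.57 ± 0.25 and 0.05 ± 0.31. RefSeq gives miR-7a-5p at both Mir7-1 (-0.25 ± 0.28) and the gene listed as Mir8 (0.28 ± 0.22). Mir30c1 and Mir30c2 were the only such pair in which both loci had an unadjusted p under 0.05.

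**Figure D5:**
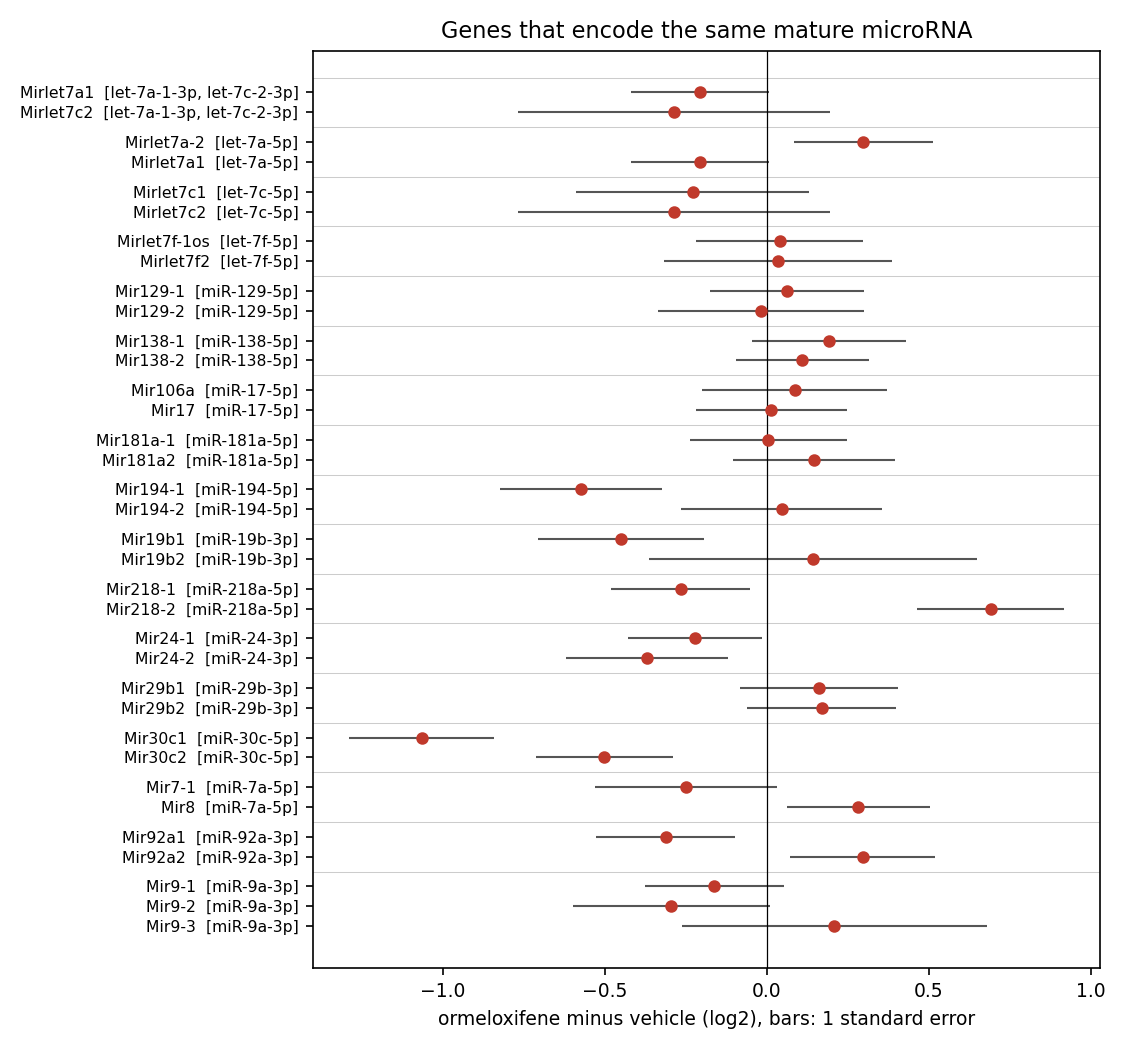
Ormeloxifene minus vehicle on the log2 scale (horizontal axis, bars of 1 standard error) for the 33 microRNA genes that share a mature strand, grouped by strand (named in brackets). Mir30c1 (-1.06) and Mir30c2 (-0.50) lie together on the left, and Mir218-1 (-0.27) and Mir218-2 (0.69) on opposite sides.

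With gaps of up to 10 kb on one strand of GRCr8, 95 of the 195 genes with a hairpin formed 34 clusters of 2 to 9. Genes without a hairpin, such as Mir212 and Mir199a2, could not be placed, so some neighbours are missing from these clusters. Members lay on both sides in 25 clusters, on the higher side in 7 and on the lower side in 2. The cluster with 9 genes, in the imprinted region of chromosome 6, had 3 higher and 6 lower, from -0.48 to 0.21. The 6 genes of the Mir17 cluster on chromosome 15 had 3 higher and 3 lower, and the 5 of its X-linked relative (Mir363, Mir92a2, Mir19b2, Mir20b and Mir106a) were all higher, from 0.09 to 0.58.

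Of the microRNA genes with a hairpin, 139 lay within the span of another RefSeq gene, 102 of them on the same strand, 22 on the opposite strand and 15 with the host's strand not analysed here; 56 had no host. Genes on the strand of their host stood at a median of the 18.3rd percentile, those on the opposite strand at the 13.1st and those with no host at the 10.3rd. Of the hosts, 51 were measured, 28 of them higher and 23 lower, from -0.47 to 0.45. By limma 0 had an unadjusted p under 0.05 (against 2.20% of all genes). With the replicate number as a block 2 did, Trpm3 and Clcn5 (against 6.76% of all genes), and 0 after adjustment. In the 50 measured pairs on the same strand, the microRNA gene and its host had one sign in 20 and opposite signs in 30. Dnaja1, a chaperone gene that holds Mir207, differed by -0.39 ± 0.25, against 0.38 ± 0.40 for Mir207. Among the other hosts of named genes, Ttll10, around Mir200a and Mir200b, differed by 0.30 ± 0.21, Mib1, around Mir1 on the opposite strand, by -0.11 ± 0.22, Tango2 by -0.09 ± 0.22, Dnm3, around Mir214 on the opposite strand, by 0.05 ± 0.20, and 2610318N02Rikl, around Mir301b, by -0.04 ± 0.25.

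No measured gene of the machinery that makes and uses microRNAs passed the test. Ago2, Tnrc6c and Srrt were on the list but not among the genes tested. Of the 22 genes measured from the 28 symbols listed, 11 were higher and 11 lower, at a median of -0.00. At an unadjusted p under 0.05 by limma were 0 of the 22 (against 2.20% of all genes). Their signal was high, at a median of the 73.2nd percentile. Drosha had 7.08 and 7.23 with ormeloxifene and 7.16 and 7.29 with vehicle, a difference of -0.07 ± 0.21, and Dicer1 had 7.52 and 7.22 with ormeloxifene and 7.46 and 7.47 with vehicle, at -0.10 ± 0.22. Dgcr8 (0.20 ± 0.22), Xpo5 (-0.19 ± 0.22) and Ago1 (0.05 ± 0.21) had groups that overlapped as well.

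The smallest p in the list were those of Dis3l2, an exonuclease that degrades uridylated let-7 precursors, and Ran. Dis3l2 had 7.25 and 7.30 with ormeloxifene, against 6.88 and 6.81 with vehicle, a difference of 0.43 ± 0.20 (unadjusted p = 0.0682, and 0.0312 with the replicate number as a block, adjusted p = 0.701). Ran had 7.76 and 7.85 with ormeloxifene, against 8.12 and 8.24 with vehicle, a difference of -0.38 ± 0.20 (unadjusted p = 0.106, and 0.0511 with the block). In both the groups did not overlap. Lin28b, which blocks let-7 maturation, was dim at the 12.5th percentile and differed by -0.21 ± 0.21, and Tut7, a uridyl transferase acting on let-7 precursors, by 0.22 ± 0.22.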

How the data were processed

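The authors deposited 1 table of log2 signals for 36685 probe sets on 4 arrays. Per the submitters' processing notes they used Affymetrix Expression Console; its version, the summary method and the genome build were not stated there. From the values (0.92 to 13.59) the scale is log2. Per the labels' protocols, 100 ng of Trizol RNA was labelled as biotinylated single-stranded DNA. The table holds no signal over background, and the number of arrays limits the precision. Array medians were 5.67 and 5.93 with ormeloxifene and 5.72 and 5.84 with vehicle, so quantile normalization was applied over all probe sets. In the platform annotation 18511 probe sets had 1 symbol, 575 had several and 17599 had none; the brightest probe set per gene was kept.

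Differences are ormeloxifene minus vehicle by limma 3.58.1 in R 4.3.3 (lmFit, eBayes, 2-sided), fitted over all 18166 genes and adjusted by Benjamini-Hochberg, with 2 residual degrees of freedom and 7.55 after moderation. The p-values measure spread between the labelled biological replicates. On simulated data the fit recovered the size of known changes. How many passed the adjusted threshold depended on how gene variances were simulated, and none passed with variances resampled from these arrays, so a count of 0 is weak evidence of no change. Named genes were the 8 of smallest p in each direction, the 12 brightest, 2 per microRNA list, 4 of the biogenesis list and the measured hosts; other genes named (relatives, cluster partners and pairs that share a strand) were chosen after their values were seen, as were the gap that defines a cluster and the use of hairpin composition. Members and lists were chosen with earlier results of these data known, and the spelling of some list patterns was widened to the file's symbols. Alternatives were other normalizations, probe set choices, a filter on dim genes, a variance trend, the replicate number as a block and leaving out each array.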

Additional observations from a re-analysis of the deposited data

How the results depend on the processing

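The count of microRNA genes past an adjusted p of 0.05 by limma was 0, and 0 again on the values as deposited, with median centring, over all probe sets, with the mean of probe sets per gene, without the lowest 20% of signal, with a variance trend and with the replicate number as a block. The deposited values fitted with the block gave 1, Mir30c1, with 84 of all 18166 genes passing. Its adjusted p by limma was 0.00293 there, and 0.229 with the block on quantile-normalized values. Leaving out 1 array leaves a lone array in a group, which is then assumed to vary like the others. No count past adjustment is therefore given for those fits. The gene whose adjusted result changed there was Mir328, whose difference rested on vehicle replicate 1, and not Mir30c1. The 5 higher genes at an unadjusted p under 0.05 (1.12% of all genes) became 0 on the values as deposited (0.314%) and 3 without the lowest 20% of signal (1.27%), which left 85 microRNA genes. The 4 lower (1.08%) became 11 with median centring (1.01%), 2 over all probe sets (1.43%), 1 without the lowest 20% (1.25%) and 1 with a variance trend (1.13%). Leaving out 1 array gave 2 to 10 higher and 2 to 13 lower, while the share of all genes at that p in either direction ran between 1.70% and 5.20%. With the replicate block they were 8 and 13, with 6.76% of all genes at that p against 2.20% without it, and on the deposited values with the block 8 and 21 (3.12% and 3.28%). Deviations of same-numbered arrays from their group means correlated at 0.42 over the microRNA genes and 0.48 over all genes. The labels name no shared litter or day, so what same-numbered arrays share beyond the number is not known. The causes of these shifts were not tested. The median signal percentile, 13.4, was 24.7 among all probe sets and 22.5 without the lowest 20%. The median difference, 0.01, had no stable sign: it was -0.058 on the values as deposited, -0.079 with median centring and 0.071 without the lowest 20% of signal.

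Directions of named genes turned only when 1 array was left out. The ranges were -0.026 to 0.29 for Mir143, -0.062 to 0.27 for Mir145, -0.032 to 0.73 for Mir185, -0.27 to 1.03 for Mir207, -0.060 to 0.35 for Mir99a, -0.20 to 0.013 for Mir99b, -0.15 to 0.29 for Mir345, -0.35 to 0.21 for Mir346 and -0.83 to 0.23 for Mir21. They were -0.18 to 0.58 for Mir196c, -0.084 to 0.47 for Mir196b, -2.17 to 0.57 for Mir328, -0.38 to 0.015 for Mir200b and -0.13 to 0.53 for Mir214. Among hosts they were -0.27 to 0.095 for Tango2, -0.56 to 0.044 for Spaca6, -0.26 to 0.17 for 2610318N02Rikl, -0.27 to 0.040 for Mib1 and -0.016 to 0.11 for Dnm3. Groups of 2 arrays are too small for a test of outlying arrays.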
